A study of Mus musculus with 9 samples.

Results

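A set of 10 genes of meiotic prophase was followed in round spermatids (RS), the haploid cells that follow the second meiotic division. The genes encode 4 proteins of the synaptonemal complex (Sycp1, Sycp2, Sycp3 and Syce2), 3 proteins that make DNA breaks, regulate them or start their repair (Spo11, Hormad1 and Dmc1) and 3 mismatch-repair family proteins of crossing over (Msh4, Msh5 and Mlh3). The members were taken by gene name from a table of 55414 genes, in which each of the 10 names matched 1 gene, and all 10 were among the 25128 genes tested.

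RNA had been sequenced from wild-type mouse RS in 3 groups of 3 libraries after 24 h in culture. The vehicle group received 0.15% DMSO, the second group 24 mM oxamate, an inhibitor of lactate dehydrogenase, and the third group 24 mM oxamate together with 0.3 mM octyl-L-2HG, a cell-permeable form of L-2-hydroxyglutarate, and DMSO was kept at 0.15% in every group. The paper lists sodium lactate and sodium pyruvate in its culture medium for spermatocytes, and does not say which medium RS were kept in. Per the study's methods, RS came from testes of mice on a C57Bl/6 background that carry Stra8-iCre and a Cre-dependent tdTomato reporter, and were sorted by tdTomato fluorescence and cell size. No library had octyl-L-2HG without oxamate, so an effect of octyl-L-2HG on its own cannot be read from these groups. The labels do not say that the libraries came from separate animals or cultures. The paper describes incubations in triplicate, and does not say whether the cells of each came from separate animals. Each p-value thus measures the spread between these libraries, which may be technical.

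The synaptonemal complex is the protein zipper that holds paired homologous chromosomes together during meiotic prophase, with lateral elements along each chromosome, transverse filaments across the gap and a central element in the middle. Meiotic recombination begins with programmed DNA breaks, whose ends invade the homologous chromosome, and a few of these contacts mature into crossovers. These proteins act in spermatocytes, before the cells divide to give RS, and many germ cell transcripts persist after meiosis. In bulk RNA, fewer cells of a type and less RNA per cell cannot be told apart.

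The libraries held 32339533 to 39888396 counted reads. Markers of RS were abundant: the summed normalized count of 9 genes was 114100 to 115100 with vehicle, 103000 to 109200 with oxamate and 97620 to 98450 with both compounds. A normalized count is the read count divided by a size factor that corrects for library depth. Other spermatocyte genes (8 genes summed) gave 36280 to 40730, 35190 to 39380 and 39420 to 40080 in the same order, of which Stra8, a gene of meiotic entry, stayed under 5 in every library (0 to 4.68). Somatic markers were scarce, with sums of at most 100 for Sertoli cells, 40.2 for Leydig cells, 109.6 for myoid cells and 185 for macrophages and endothelium, and the Sertoli markers Cldn11 and Rhox5 and the Leydig markers Hsd3b1 and Insl3 had fewer than 10 reads in the 9 libraries together. Across all genes tested, octyl-L-2HG with oxamate gave 798 higher and 2025 lower genes against oxamate (421 and 2516 when scaled by total counts), and 1879 higher and 2655 lower against vehicle (1231 and 3367 when scaled by total counts). Total counts also moved the median of all genes to -0.11 (log2) in the last comparison.

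**Figure D1:**
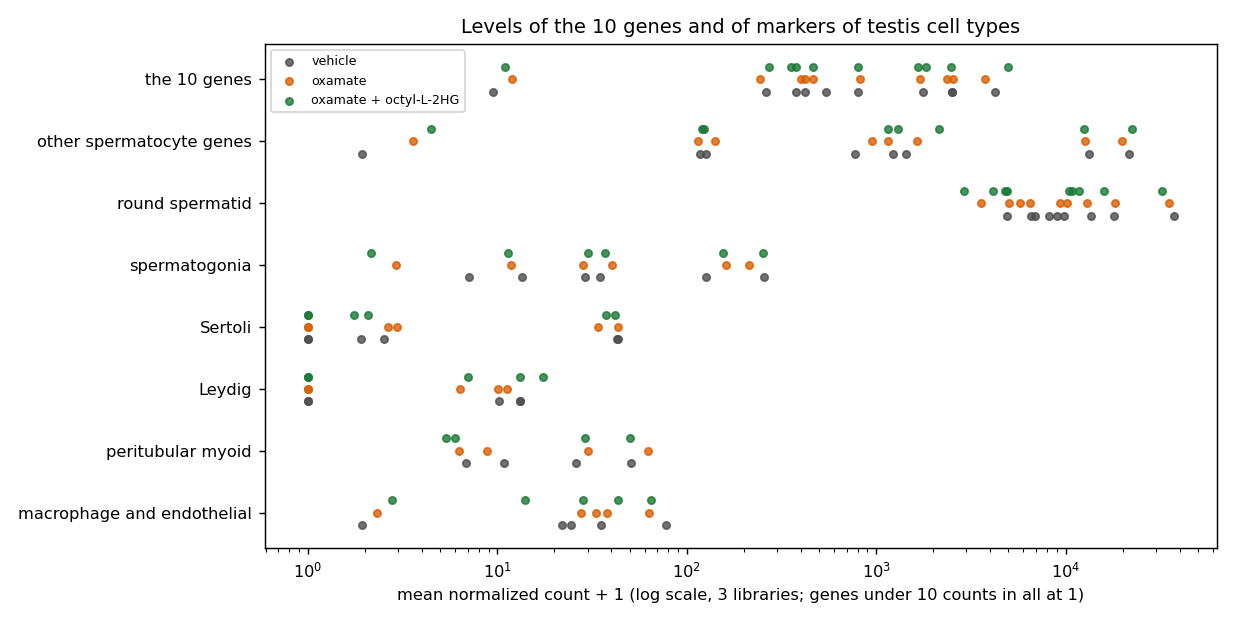
Mean normalized count plus 1 (log axis, n = 3 libraries) of the 10 meiotic genes and of each marker gene of testis cell types, coloured by group, with genes too low to be tested drawn at 1. Of the 10 genes, 9 lie above 200 in each group and above every somatic marker, with Sycp2 above the lowest spermatid marker in the groups with oxamate, and Dmc1 lies near the low end.

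Transcripts of 9 of the 10 genes were readily counted in vehicle-treated RS, and Dmc1 was close to absent. Sycp2 had the highest mean, at 4262 normalized counts, and 8.13% of the genes tested were higher. Levels were compared between genes per kilobase of exon, on which scale Syce2 came first at 1273 ± 15.4 (SD, n = 3) normalized counts per kb. Sycp2 (714 ± 105), Sycp1 (706 ± 80) and Sycp3 (638 ± 85.8) followed, and the libraries of neighbours in this order overlapped. Spo11 (450 ± 34.2) and Hormad1 (315 ± 60.2) came next, each separate from its neighbours. The crossover genes were lower, with Msh5 at 68.6 ± 5.92 and Msh4 at 61.1 ± 7.01 per kb, which overlapped, then Mlh3 at 34.4 ± 4.81. Dmc1 was last at 3.51 ± 1.85 per kb. Syce1, another central element gene, stood far above all 10 genes at 11180 ± 394 per kb.

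Of the 10 genes, Syce2 and Sycp2 were called in the fit of all 9 libraries. Syce2 fell when octyl-L-2HG was added to oxamate, and was then also below vehicle, whereas Sycp2 rose above its level with oxamate. The remaining 8 genes passed no test in that fit. Oxamate alone called 0 of the 10 genes, against 5.19% of all genes tested, by the quasi-likelihood test of edgeR with Benjamini-Hochberg adjustment over all genes (the test behind every adjusted p below). At an unadjusted p under 0.05 the count was 1, Hormad1, against 17.3% of all genes, and DESeq2 called 0 of the 9 genes to which it gave an adjusted p. Octyl-L-2HG with oxamate against oxamate called 2 of 10, against 11.2% of all genes, with 1 gene higher (3.18% of all genes) and 1 lower (8.06%). Against vehicle, both compounds called 1 of 10, against 18.0% of all genes, with 0 genes higher (7.48%) and 1 lower (10.6%). A test of any difference among the 3 groups called 2 of 10, against 19.8%. The share of the 10 genes called was above the background against oxamate, below it in both comparisons with vehicle and level with it for any difference, in each case by the weight of a gene or less. Among the 10715 better expressed genes (normalized counts averaging 100 or more over the libraries) the background was higher, at 9.67%, 19.8%, 29.5% and 33.5% in the same order. The last 2 comparisons share libraries, so their calls for Syce2 are not independent.

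**Figure D2:**
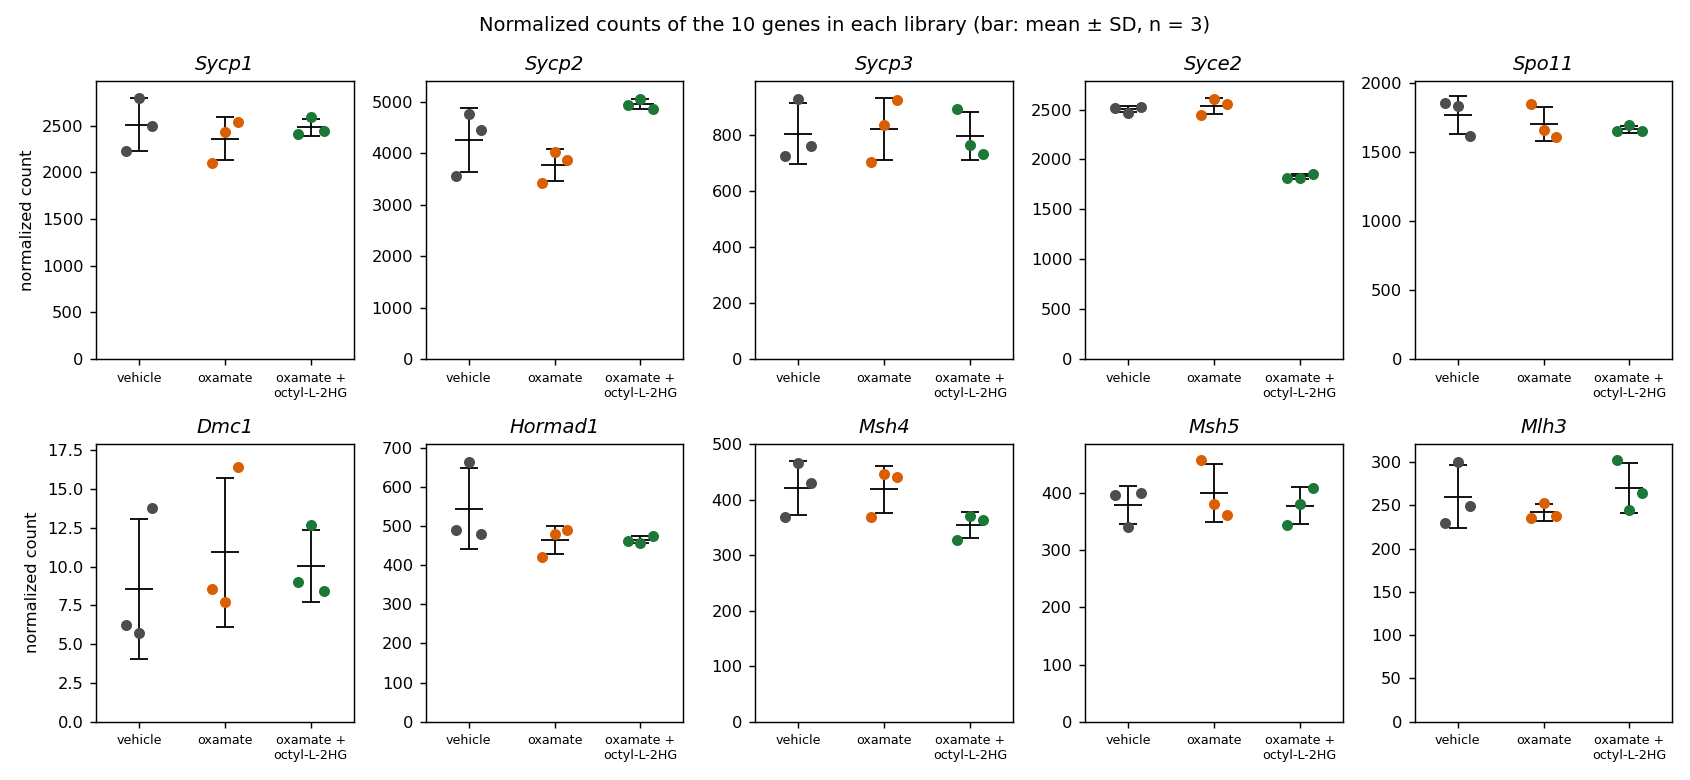
Normalized count of each gene (vertical axis, from 0) in the 3 vehicle, 3 oxamate and 3 oxamate + octyl-L-2HG libraries, with the mean and SD as black bars. The Syce2 libraries with both compounds (1816 to 1859) sit below the other 6 (2444 to 2602), and the Sycp2 libraries with both compounds (4869 to 5065) sit above them (3417 to 4762).

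The upstream sequences of Syce2 and Sycp2, which moved in opposite directions, are shown because their short motifs differ at 1 of 2 Syce2 starts. Those of Hormad1 and Sycp3 are shown because they hold the same kinds of motif as Syce2 at that start, without a call. RefSeq promoter windows on build GRCm38.p6 (250 bases before to 50 after a transcript start) matched 9 of the 10 genes with 12 windows. They were searched on both strands for GCGGGAA, a core bound by E2F factors, CACGTG, an E-box, CAACNG, a core bound by MYB factors, and TGACGT, a cyclic AMP response element core. The reads had been aligned to another build, GRCm39, so these positions belong to the sequences only. The 250 bases upstream are printed 5′ to 3′ on the strand of the gene, with motif matches in capitals. The Syce2 stretch is chr8:84872008-84872257 (plus strand, before the downstream of 2 listed starts), that of Sycp2 chr2:178407659-178407908 (minus strand), that of Hormad1 chr3:95559427-95559676 (plus strand, the upstream of 2 listed starts) and that of Sycp3 chr10:88459337-88459586 (plus strand).
Syce2: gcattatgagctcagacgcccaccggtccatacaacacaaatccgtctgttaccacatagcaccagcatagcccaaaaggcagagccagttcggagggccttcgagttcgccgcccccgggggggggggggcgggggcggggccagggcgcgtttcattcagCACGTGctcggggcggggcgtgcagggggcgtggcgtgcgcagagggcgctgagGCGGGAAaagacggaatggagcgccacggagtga
Sycp2: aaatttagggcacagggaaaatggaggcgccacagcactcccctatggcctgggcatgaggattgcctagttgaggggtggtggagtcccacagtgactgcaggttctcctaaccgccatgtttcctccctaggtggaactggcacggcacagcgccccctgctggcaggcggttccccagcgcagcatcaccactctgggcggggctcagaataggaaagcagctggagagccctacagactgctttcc
Hormad1: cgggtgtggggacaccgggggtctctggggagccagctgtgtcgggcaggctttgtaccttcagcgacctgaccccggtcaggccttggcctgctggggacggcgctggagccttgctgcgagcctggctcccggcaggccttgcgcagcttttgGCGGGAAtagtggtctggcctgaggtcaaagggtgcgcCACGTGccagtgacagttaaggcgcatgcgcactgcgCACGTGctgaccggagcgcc
Sycp3: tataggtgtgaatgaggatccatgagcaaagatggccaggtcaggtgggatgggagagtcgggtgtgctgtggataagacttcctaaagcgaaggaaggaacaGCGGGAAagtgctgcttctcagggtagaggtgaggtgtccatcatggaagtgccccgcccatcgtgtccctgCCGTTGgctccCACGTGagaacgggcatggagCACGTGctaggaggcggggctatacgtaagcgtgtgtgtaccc
In the Syce2 window shown, CACGTG began 88 bases and GCGGGAA 34 bases before the start, whereas the window of Sycp2 held none of the 4 motifs. The window of the other listed Syce2 start also held none of them. Hormad1 held GCGGGAA and 2 copies of CACGTG, and Sycp3 held GCGGGAA, 2 copies of CACGTG and, on the other strand, a CAACNG match. The GCGGGAA core was found in windows of 4 of the 9 matched genes (Hormad1, Msh5, Syce2 and Sycp3), or 5 of their 12 windows, and in 4.6% of all 32851 windows. CACGTG was found for 4 genes (Hormad1, Syce2, Sycp1 and Sycp3), also in 5 of 12 windows, and in 7.15% of all windows. CAACNG was found for 3 genes (Msh5, Sycp1 and Sycp3), in 3 of 12 windows against 35.0% of all windows, and TGACGT in 0 of 12 against 7.51%. The windows of Hormad1 overlap, so its matches count in both. None of these matches overlapped another. The share of G and C in the 12 windows ran from 43.3% (Msh4) to 69.3% (the Syce2 window shown), with a median of 52.7% over all windows, and the 3 genes with both GCGGGAA and CACGTG included 1 that was called. A match describes letters in a window and says nothing about binding.

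The synaptonemal complex genes showed both of the called changes. Syce2 (ENSMUSG00000003824), a central element protein that helps synapsis spread between homologs, had 2515, 2471 and 2529 normalized counts with vehicle and 2444, 2602 and 2552 with oxamate. With both compounds it had 1816, 1818 and 1859. The 3 libraries with both compounds were below all of the others, and vehicle and oxamate overlapped. Against oxamate the log2 fold change was -0.49 ± 0.0646 (SE), a change of -29% (95% interval -35.3% to -22%), with an adjusted p of 3.92e-05. Against vehicle it was -0.47 ± 0.0645, a change of -28% (95% interval -34.4% to -21%), with an adjusted p of 2.06e-05. Oxamate alone changed Syce2 by 0.02 ± 0.0639 (log2, adjusted p = 0.923), with an interval of -7.51% to 11.2%. Both calls held in all 16 alternatives tried, where the adjusted p was at most 0.00126 against oxamate and 0.000619 against vehicle.

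Sycp2 (ENSMUSG00000060445), a lateral element protein that binds Sycp3, had 3563, 4762 and 4460 normalized counts with vehicle and 3417, 4032 and 3861 with oxamate. With both compounds it had 4939, 5065 and 4869. The libraries with both compounds were above every other library, while oxamate overlapped with vehicle. The rise against oxamate was 0.37 ± 0.0868 (log2), or 29.2% (95% interval 14% to 46.4%), with an adjusted p of 0.00774, and it was called in all 16 alternatives, with an adjusted p of at most 0.0479. Against vehicle the difference was 0.20 ± 0.0865 (adjusted p = 0.128). It was called in 4 of 16 alternatives. These included the fits without vehicle library 2 (0.29, adjusted p = 0.0402) and without oxamate library 4 (0.20, adjusted p = 0.045). With 1 library left out the difference ranged from 0.08 to 0.29, and the adjusted p reached 0.547. Oxamate against vehicle gave -0.17 ± 0.0867 (adjusted p = 0.314). Without vehicle library 1, the lowest of its group, that difference became -0.29 with an adjusted p of 0.0357. Without vehicle library 2, the highest of its group, it was -0.08 with an adjusted p of 0.777.

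Sycp1 (ENSMUSG00000027855), which forms the transverse filaments, had 2235, 2803 and 2495 normalized counts with vehicle, 2100, 2439 and 2539 with oxamate and 2417, 2590 and 2449 with both compounds. The 3 groups overlapped. Its log2 differences lay between -0.09 and 0.05, and the interval for oxamate against vehicle was -16.5% to 6.19%. Sycp3 (ENSMUSG00000020059), the main lateral element protein, had 727, 930 and 762 normalized counts with vehicle, 707, 837 and 929 with oxamate and 894, 768 and 733 with both compounds. These groups overlapped too, with log2 differences between -0.07 and 0.03. In a GENCODE annotation of another build, 660 of the 1264 exonic bases of Sycp3 (52.2%) lie opposite exons of Chpt1, a phospholipid synthesis gene. The strand setting of the counting is not given in the sources used here, so reads of Sycp3 and Chpt1 may not have been separated. Chpt1 itself was not called in any comparison (log2 differences -0.05, -0.04 and -0.08).

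The genes of break formation, axis and strand exchange passed no test in the fit of all 9 libraries. Spo11 (ENSMUSG00000005883), the catalytic protein that makes the breaks, had 1856, 1830 and 1612 normalized counts with vehicle, 1843, 1654 and 1609 with oxamate and 1647, 1691 and 1651 with both compounds. The groups overlapped, and the largest of its log2 differences was -0.11 ± 0.0771, for both compounds against vehicle (adjusted p = 0.38). Hormad1 (ENSMUSG00000028109), an axis protein that promotes break formation and marks unsynapsed chromosomes, had 489, 664 and 480 normalized counts with vehicle. It had 422, 480 and 489 with oxamate and 463, 458 and 476 with both compounds. Vehicle library 2 was far above the other 8. The libraries with both compounds lay just below all vehicle libraries, whereas those with oxamate alone overlapped with vehicle. The log2 difference was -0.23 ± 0.108 for oxamate against vehicle (adjusted p = 0.282) and -0.25 ± 0.109 for both compounds against vehicle (adjusted p = 0.127), and without vehicle library 2 the values were -0.05 and -0.07. Dmc1 (ENSMUSG00000022429), the meiotic recombinase that carries out strand exchange, had 88 reads in all 9 libraries together. Its normalized counts were 6.22, 5.69 and 13.7 with vehicle, 8.57, 7.70 and 16.4 with oxamate and 8.98, 12.7 and 8.43 with both compounds. At this depth the interval for oxamate against vehicle ran from -30.3% to 124%, so a change of either sign of some size was not detectable.

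The crossover genes also passed no test in the fit of all 9 libraries. Msh4 (ENSMUSG00000005493), which with Msh5 forms the MutSγ clamp that stabilizes crossover intermediates, had 370, 465 and 430 normalized counts with vehicle and 369, 446 and 441 with oxamate. With both compounds it had 328, 371 and 364. Vehicle and oxamate held almost the same levels, and the libraries with both compounds were lower but for an overlap of the highest of them with the lowest of the other groups. The log2 difference was -0.26 ± 0.103 against oxamate (adjusted p = 0.112) and -0.27 ± 0.102 against vehicle (adjusted p = 0.0737). Without oxamate library 4 the 2 values were -0.34 (adjusted p = 0.0106) and -0.27 (adjusted p = 0.0189), and without vehicle library 1 the value against vehicle was -0.36 (adjusted p = 0.0227). Against vehicle Msh4 was called in 5 of 16 alternatives, among them total counts as scaling (-0.33, adjusted p = 0.0332) and a fit of those groups alone (-0.25, adjusted p = 0.0397), with adjusted p from 0.00084 to 0.309 over all of them. Against oxamate it was called in 2 of 16. Msh5 (ENSMUSG00000007035), its partner, had 396, 341 and 399 normalized counts with vehicle, 457, 381 and 362 with oxamate and 345, 380 and 409 with both compounds. Its groups overlapped, with log2 differences between -0.11 and 0.09, and whether the difference of Msh4 differed from that of Msh5 was not tested. Mlh3 (ENSMUSG00000021245), a subunit of the MutLγ nuclease that resolves crossovers, had 230, 300 and 249 normalized counts with vehicle, 235, 253 and 238 with oxamate and 302, 244 and 264 with both compounds. The groups overlapped and its log2 differences lay between -0.10 and 0.13.

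**Figure D3:**
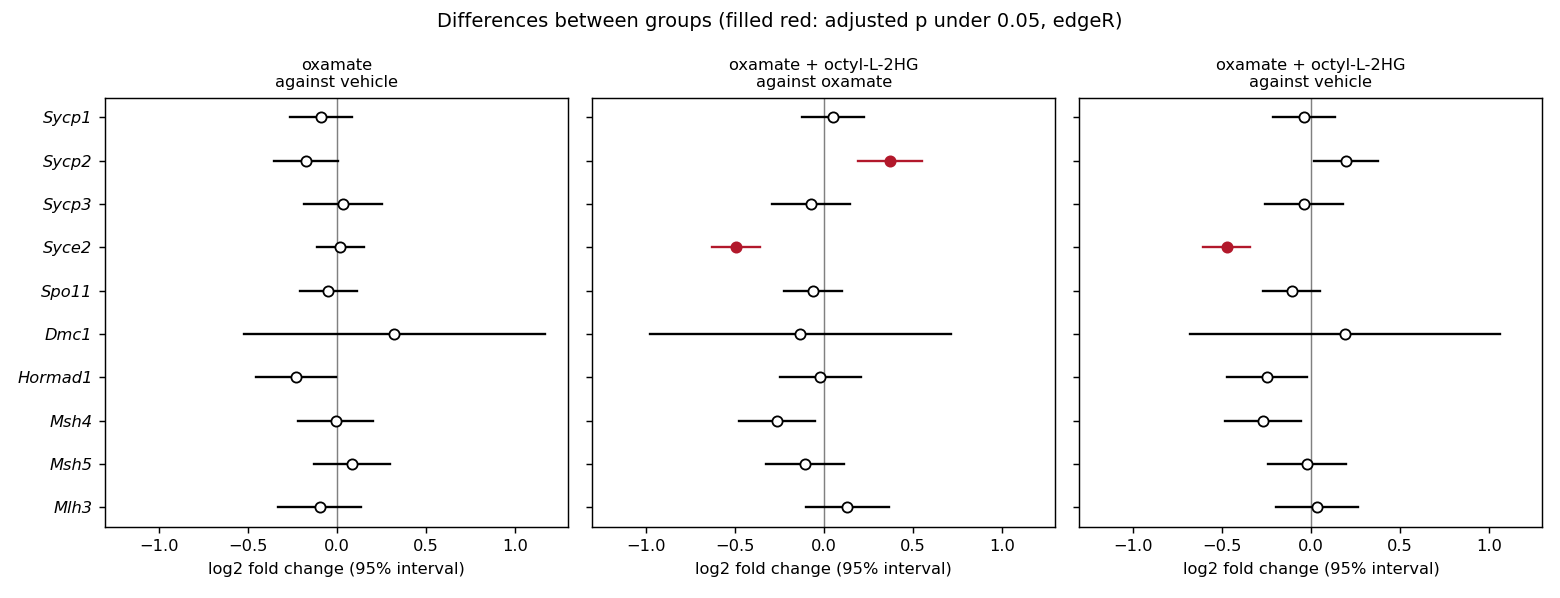
Log2 fold change (horizontal axis) with its 95% interval for each gene in the 3 comparisons, with genes called at an adjusted p under 0.05 filled in red. Syce2 is called at -0.49 and -0.47 in the comparisons with both compounds, Sycp2 at 0.37 against oxamate, and 0 genes are called for oxamate against vehicle.

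Taken as a list, the 10 genes had a median log2 fold change of -0.03 for oxamate against vehicle, where the median over all genes tested was -0.01. For both compounds against oxamate the medians were -0.07 and -0.04, and against vehicle -0.04 and -0.05. The groups did not overlap for 0 of 10 genes with oxamate against vehicle (21.3% of all genes tested) and for 2 of 10 with both compounds against oxamate (28.8%), which were Syce2 and Sycp2. With both compounds against vehicle 3 of 10 did not overlap (36.5%), with Sycp2 above and Syce2 and Hormad1 below.

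Vehicle library 1 and oxamate library 4 deviated from their groups in the same way. Over the 10715 better expressed genes, the deviations of these libraries from their group means had a Pearson correlation of 0.72 across genes, which are not independent. Of the 9 genes other than Dmc1, 6 lay below the group mean in vehicle library 1 and 7 in oxamate library 4, with median deviations of -0.14 and -0.13 on the log2 scale. Spo11 and Msh5 went the other way in both libraries, at 0.07 and 0.12 for Spo11 and at 0.07 and 0.20 for Msh5. Syce2 deviated by 0.0058 and -0.05. With both libraries left out, a choice made after seeing them, Sycp2 was lower with oxamate than with vehicle (-0.22, adjusted p = 0.00522). Against vehicle, both compounds then gave lower Hormad1 (-0.32, adjusted p = 0.0142) and lower Msh4 (-0.35, adjusted p = 0.00084), and Msh4 was also lower than with oxamate (-0.34, adjusted p = 0.00181). That fit kept vehicle library 2, the highest for Hormad1. With only that library left out, the Hormad1 difference against vehicle was -0.07. With both libraries out, the calls became 1, 3 and 3 of 10 genes in the 3 comparisons. The share of all genes called in that fit was not computed, so these counts have no background beside them. The part of these libraries in the differences of Sycp2, Hormad1 and Msh4 was not tested further, and the log2 difference of Syce2 against oxamate stayed between -0.54 and -0.45 in all alternatives.

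**Figure D4:**
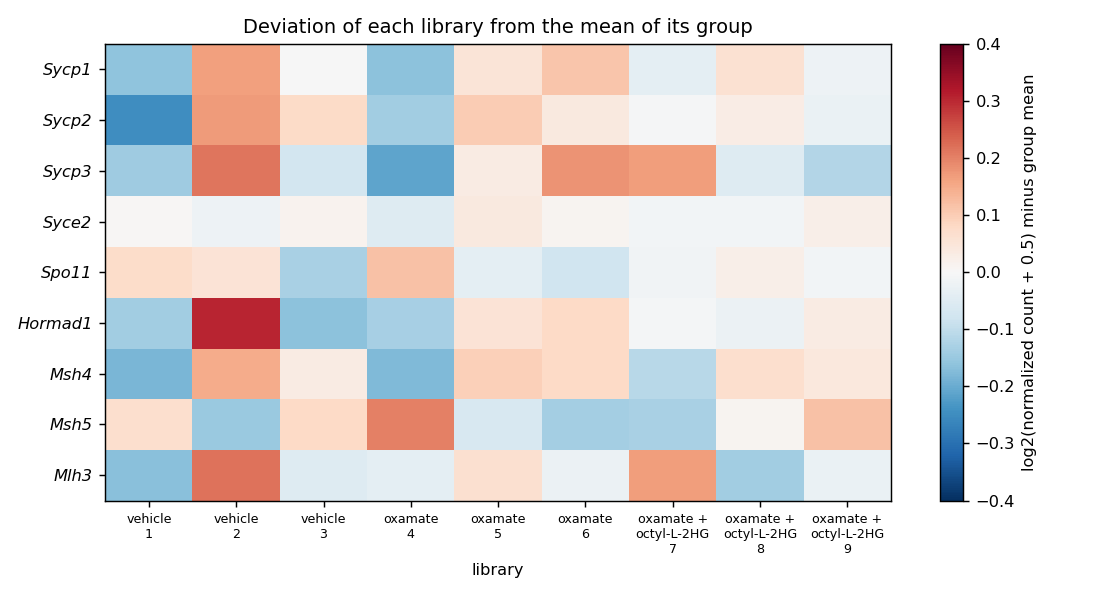
Deviation of each library (columns) from the mean of its group, on the scale of log2(normalized count + 0.5), for 9 genes (rows, without Dmc1), with red above and blue below the group mean. Vehicle library 1 and oxamate library 4 are blue for Sycp1, Sycp2, Sycp3, Hormad1, Msh4 and Mlh3, and Syce2 is pale in all 9 libraries.

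A further 47 meiotic genes were listed by role, and all were tested. With oxamate alone 0 of them were called, against 5.19% of all genes, and 7 had an unadjusted p under 0.05, against 17.3%. DESeq2 called 0 of the 40 to which it gave an adjusted p. With both compounds against oxamate 6 were called, 4 higher (3.18% of all genes) and 2 lower (8.06%), and against vehicle 6 were called, all higher (7.48% of all genes). Among the 10715 better expressed genes, 756 were called higher and 1361 lower against oxamate. Against vehicle 1712 of those genes were called higher and 1454 lower. Without oxamate library 4 the counts of the 47 genes were 11 and 12. Without the library 7 of both compounds they were 3 and 3, as also without library 8 against vehicle. The shares of all genes called in those fits were not computed. The median log2 difference of the 47 genes was 0.0045, 0.05 and 0.07 in the 3 comparisons, where that of all genes was -0.01, -0.04 and -0.05.

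In the rest of the synaptonemal complex 1 of 5 genes was called in each comparison with both compounds, against 11.2% of all genes for the comparison with oxamate and 18.0% for that with vehicle. Syce1, a central element protein that binds Syce3 and Six6os1, had 15800, 16940 and 16230 normalized counts with vehicle, 14310, 15860 and 16350 with oxamate and 20490, 18820 and 17680 with both compounds. Its libraries with both compounds lay above all others. The log2 difference was 0.27 ± 0.0674 against oxamate (adjusted p = 0.0123) and 0.20 ± 0.0673 against vehicle (adjusted p = 0.0467), whereas that of Syce2 was negative. Syce3, also a central element gene, was not called, with -0.06 and -0.15. Of the 6 axis and cohesin genes, Rec8, the meiotic kleisin, fell by 0.29 on the log2 scale against oxamate (adjusted p = 0.0211). Against vehicle Rec8 had -0.17 (adjusted p = 0.145). Among the 8 break formation genes Ankrd31, which recruits the break machinery to chromosome axes, rose by 0.37 ± 0.0881 against oxamate (adjusted p = 0.00836) and by 0.34 ± 0.0878 against vehicle (adjusted p = 0.00872). None of the 11 strand exchange genes was called in any comparison, against 5.19%, 11.2% and 18.0% of all genes. At an unadjusted p under 0.05 there were 2, 0 and 0, against 17.3%, 23.6% and 30.0%, and DESeq2 called 0.

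Of the 11 crossover genes, 2 rose with both compounds against vehicle (7.48% of all genes). Against oxamate 0 were called (11.2% of all genes), 3 had an unadjusted p under 0.05 (23.6% of all genes) and DESeq2 called 1, Rnf212b. Rnf212b, a RING protein of crossover designation, had 218, 193 and 216 normalized counts with vehicle, 260, 216 and 188 with oxamate and 260, 301 and 301 with both compounds. The libraries with both compounds lay above every other library, the lowest of them by under 1 normalized count. Its log2 difference against vehicle was 0.44 ± 0.116 (adjusted p = 0.01). Prr19, a partner of the crossover cyclin Cntd1, rose by 0.28 ± 0.0862 against vehicle (adjusted p = 0.0248). Telomere attachment genes tie chromosome ends to the nuclear envelope for homolog search, and 3 of these 6 were called against oxamate (11.2% of all genes) and 2 against vehicle (18.0%). Terb1, part of the complex that joins telomeres to the envelope, had 871, 998 and 927 normalized counts with vehicle, 797, 898 and 907 with oxamate and 1198, 1201 and 1166 with both compounds. Its groups with and without octyl-L-2HG were well separated, and it rose by 0.43 ± 0.0777 against oxamate (adjusted p = 0.000962) and by 0.33 ± 0.0771 against vehicle (adjusted p = 0.00414). Spdya, an activator of the kinase Cdk2 at telomeres, rose by 0.34 ± 0.0761 against oxamate (adjusted p = 0.00491) and by 0.30 ± 0.076 against vehicle (adjusted p = 0.00836). Sun1, an inner nuclear envelope protein that holds telomeres and is also present outside the germ line, fell by 0.32 on the log2 scale against oxamate (adjusted p = 0.00329).

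**Figure D5:**
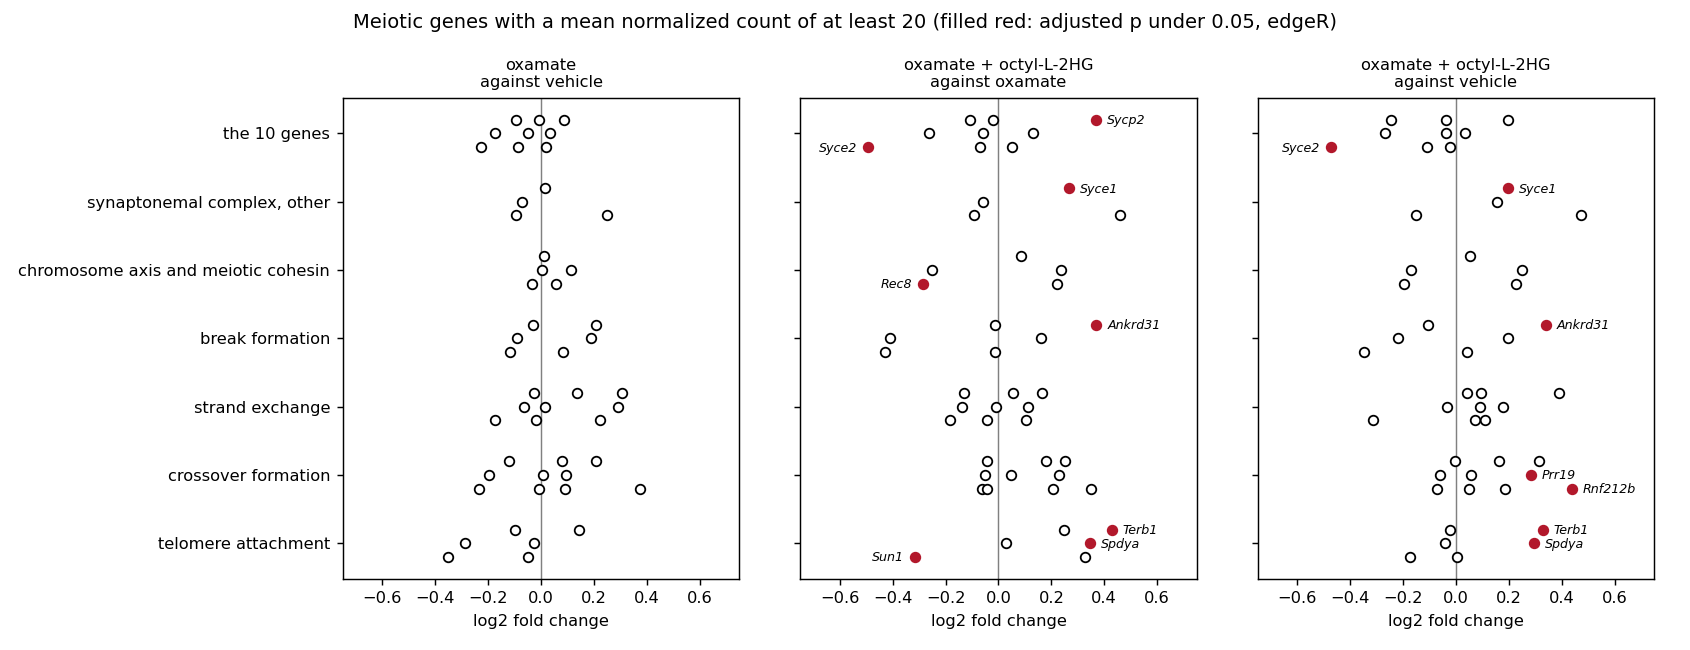
Log2 fold change (horizontal axis) of the 49 of 57 listed meiotic genes whose normalized counts averaged 20 or more, by role (rows, points spread vertically for legibility), in the 3 comparisons, with genes called at an adjusted p under 0.05 filled in red and named. No point is red for oxamate against vehicle, and the red points with both compounds lie on either side of 0 against oxamate.

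Some of the other stage markers were called too. Of the 8 spermatocyte markers 1 was called with oxamate against vehicle (5.19% of all genes), 2 with both compounds against oxamate (11.2%) and 2 with both against vehicle (18.0%), all higher. Mybl1, which encodes the spermatocyte transcription factor A-MYB, rose by 0.30 ± 0.0803 (log2) with oxamate against vehicle (adjusted p = 0.0299). Adding octyl-L-2HG raised Mybl1 by a further 0.43 ± 0.0792 (adjusted p = 0.00103). Meioc, a regulator of meiotic transcripts, rose by 0.37 ± 0.104 against oxamate (adjusted p = 0.0248), and the other 6 spermatocyte markers were not called in any comparison. Of the 9 RS markers 7 fell (10.6% of all genes) and 1 rose (7.48%) with both compounds against vehicle, where 29.5% of the better expressed genes were called in either direction, and the lowest values were those of genes for the proteins that replace histones in later spermatids. Prm1, a protamine, had -0.45 ± 0.066 with oxamate against vehicle (adjusted p = 0.000224) and -0.32 ± 0.0666 with both compounds against oxamate (adjusted p = 0.0027). Acrv1, an acrosomal protein gene, rose by 0.25 ± 0.0653 with both compounds against vehicle (adjusted p = 0.0103). The part of these shifts in the differences of Syce2 and Sycp2 was not tested. Of the 20 somatic markers 16 were tested and 0 were called in any comparison. At an unadjusted p under 0.05 there were 0 for oxamate against vehicle (17.3% of all genes), 3 for both compounds against oxamate (23.6%) and 1 for both against vehicle (30.0%), and DESeq2 called 0 of the 8, 9 and 12 to which it gave an adjusted p.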

How the data were processed

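RNA of RS was sequenced after polyA selection in 9 libraries made with a stranded kit. Per the study's methods and the submitters' processing notes, the authors trimmed reads (fastx_toolkit, cutadapt 2.10), aligned them to the mouse genome (GRCm39, Ensembl annotation) with TopHat2 2.1.1 and obtained gene-level counts from htseq-count (HTSeq 2.01). The strand setting of the counting is not given in the sources used here. The deposited table holds the count of reads per gene, not normalized, and a normalized signal, which the authors made by dividing the count by 1 size factor per library (DESeq2 1.36.0). Libraries of a group were not duplicates: the chi-square per degree of freedom between their counts was 1.98 to 20.7.

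Groups and library numbers came from the labels. Genes with 10 or more counts in all were tested in R 4.3.3 with edgeR 4.0.16: TMM scaling, 1 robust quasi-likelihood fit of all 9 libraries with the group as its term, and Benjamini-Hochberg adjustment over all genes tested with a threshold of 0.05. SE is the log2 fold change divided by the root of F. The script was tested on simulated data. Exonic lengths came from a GENCODE annotation on another build, matched for 99.6% of the genes tested. Alternatives were the test of DESeq2 1.42.0, its size factors or total counts as scaling, 2 other filters, fits restricted to the groups at hand, and each library omitted in turn. Leaving out vehicle library 1 and oxamate library 4 together was added after the data were seen.

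The 10 genes and all lists were chosen with earlier results of these data known. Named genes are the 10, the markers, up to 2 called genes with the largest change per list and comparison, and, for each of the 10 that differed among the groups, the 3 others most correlated with it. Sun1, Syce3 and Chpt1 fall outside this rule and their values were seen before they were named.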

Additional observations from a re-analysis of the deposited data

How the results depend on the processing

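No paired analysis was possible because the library numbers 1 to 3, 4 to 6 and 7 to 9 are shared by no groups. Of the members, 0 were called for oxamate against vehicle (0 to 1 with 1 library left out, 1 without vehicle library 1 and oxamate library 4 together), 2 for both compounds against oxamate (2 to 3), 1 for both against vehicle (1 to 3, 2 with total counts or no filter, 3 in a fit of those groups or with both libraries out) and 2 for any difference (1 to 3, 4 with both libraries out). Of the 47 wider genes the counts were 0 (0 to 3, 1 with no filter, 2 with both libraries out), 6 (3 to 11, 11 with no filter, 13 with both out), 6 (3 to 12) and 8 (4 to 12, 14 with both out). The any-difference count of members was 1 without library 7 or 8 of both compounds. No share of all genes called was computed for fits with libraries left out, other filters or restricted groups. Signs turned only for differences that were not called. For oxamate against vehicle with 1 library left out, the log2 ranges were -0.16 to 0.0053 (Sycp1), -0.053 to 0.15 (Sycp3), -0.061 to 0.82 (Dmc1), -0.094 to 0.075 (Msh4), -0.029 to 0.16 (Msh5) and -0.18 to 0.025 (Mlh3). Against oxamate they were -0.022 to 0.10 (Sycp1), -0.17 to 0.016 (Sycp3), -0.10 to 0.0071 (Spo11), -0.33 to 0.25 (Dmc1), -0.078 to 0.015 (Hormad1) and -0.18 to 0.0077 (Msh5), with -0.022 (Sycp1), 0.0073 (Spo11) and 0.0087 (Msh5) when both libraries were out. Hormad1 there had 0.0061 with DESeq2, 0.0066 with its size factors, 0.026 with no filter, 4.2e-05 with edgeR's own filter and 0.0024 in a fit of those groups. For both compounds against vehicle they were -0.11 to 0.056 (Sycp1), -0.12 to 0.083 (Sycp3), -0.016 to 0.71 (Dmc1), -0.0902 to 0.043 (Msh5) and -0.046 to 0.16 (Mlh3), with 0.0089 (Sycp1), 0.0084 (Sycp3) and 0.023 (Msh5) with no filter, 0.015 (Msh5) and -0.043 (Mlh3) with both libraries out, and -0.029 (Mlh3) with total counts. The causes were not tested. With 88 reads in all, depth limits Dmc1.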

Other observations

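Over the 9 libraries, the genes whose log2 normalized counts followed Sycp2 most closely, among 10706 genes compared, were Ccdc7a (Pearson r = 0.998), Gm13941 (0.992) and C2cd6 (0.992). The log2 differences of Ccdc7a were -0.19 for oxamate against vehicle and 0.40 for both compounds against oxamate. Those of Gm13941 were -0.19 and 0.35, and those of C2cd6 were -0.19 and 0.33. The genes most like Syce2 were Pigk (0.997), Aasdhppt (0.996) and Gadl1 (0.994). Pigk, which encodes a subunit of the GPI transamidase, had log2 differences of 0.04 and -0.64 in the same order. Aasdhppt had 0.01 and -0.45, and Gadl1 had -0.0057 and -0.24. The points share 3 groups of 3 libraries, so these coefficients describe the same group differences and carry no p.

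The 6 genes of the spermatogonial list were summed as a marker of earlier cells, and gave 440 to 475 normalized counts with vehicle, 450 to 457 with oxamate and 453 to 516 with both compounds. Sohlh1, a transcription factor of spermatogonia, had 6.22, 5.69 and 6.41 normalized counts with vehicle, 2.86, 2.89 and 0 with oxamate and 1.12, 2.31 and 0 with both compounds, from 29 reads in all. It was the only 1 of the 6 genes called by edgeR's quasi-likelihood test in a comparison of pairs of groups, for both compounds against vehicle (adjusted p = 0.0313), where 18.0% of all genes were called, and DESeq2 gave it no adjusted p.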
